A study of Homo sapiens with 108 samples.

Results

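The interferon response genes described here are 39 genes that cells switch on when interferon is sensed, among them MX1, ISG15, the OAS and IFIT families, RSAD2 and IRF7. They were taken by name as a list, and each gene was represented by its brightest probe set on average. A probe set of its own was found for 38 of the 39, out of 19775 genes on the array, and all 38 passed the filter on dim genes in every line. STAT2 was not analysed here. Levels are given as log2 of the deposited intensity, so a difference of 1 is a 2-fold change, and a level of one gene is never set against that of another.

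The cells were 4 human non-Hodgkin lymphoma lines, Karpas422, WSU-DLCL2, SU-DHL6 and Pfeiffer. Each was treated with the vehicle DMSO, with EPZ6438 at a dose labelled LCC, or with EPZ6438 at 10xLCC, and sampled at days 2, 4 and 6. EPZ6438 (tazemetostat) inhibits EZH2, the methyltransferase that places the repressive mark H3K27me3. The series description gives the Y641 mutation of EZH2 to Karpas422, SU-DHL6 and WSU-DLCL2 but not to Pfeiffer. Each line is 1 genetic background, so differences between lines cannot be ascribed to that mutation alone. The 36 groups held 3 arrays each, labelled A, B and C. The concentration behind LCC is not named in the sources used here, so doses were compared only within a line. The labels do not say that the replicates were separate cultures, so p-values measure the spread between these samples, which may be technical.

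Interferons are secreted proteins that bind receptors coupled to the kinases JAK1 and TYK2. These kinases activate STAT family factors, which join IRF9 in a complex that binds the interferon-stimulated response element (ISRE) in the promoters of target genes. The products sense and degrade foreign RNA, block viral entry and budding, tag proteins with ISG15, and include further transcription factors such as IRF7, which drive more interferon. In B cells, as in most cell types, the response belongs to antiviral defence.

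The members lay on several chromosomes, but 19 of the 38 stood in 9 runs of direct neighbours (GRCh38.p14), so they are not independent positions. The runs were IFI44L with IFI44, IFIT2 with IFIT3, IFIT1 with IFIT5, OAS1 with OAS3 and OAS2, CMPK2 with RSAD2, MX2 with MX1, PARP9 with DTX3L, HERC6 with HERC5, and SAMD9 with SAMD9L. RefSeq promoter windows, most of each before the annotated start, were matched for 31 members. The core letters of the ISRE, GAAANNGAAA on either strand, stood in 22 of the 31, or 70.97%, and in 1255 of 35116 promoters of all genes, or 3.57%. The 9 members without the ISRE letters in this window were CMPK2, RSAD2, PARP9, HERC6, SAMD9L, OAS1, IRF9, XAF1 and IFI35. A match is a description of the letters and not a measured binding site.

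The stretches below are 100 bases of GRCh38.p14 from RefSeq, read 5′ to 3′ along the gene's strand, with the ISRE core letters in capitals. They are shown for 5 of the 8 members that changed most in Karpas422 and for IFIT3, because they show how the element varies in number and distance from the start. IFI27 lies at chr14:94110596-94110695 on the plus strand, IFIH1 at chr2:162318685-162318784 on the minus strand and IFI44L at chr1:78620330-78620429 on the plus strand. RTP4 lies at chr3:187368285-187368384 on the plus strand, LGALS3BP at chr17:78979927-78980026 on the minus strand and IFIT3 at chr10:89327830-89327929 on the plus strand. The stretches of IFI27, RTP4 and IFIT3 hold 2 copies, and those of IFIH1, IFI44L and LGALS3BP hold 1. The whole promoter windows hold 3 for IFIH1 and 2 for IFI44L, so these counts depend on the stretch shown.
IFI27: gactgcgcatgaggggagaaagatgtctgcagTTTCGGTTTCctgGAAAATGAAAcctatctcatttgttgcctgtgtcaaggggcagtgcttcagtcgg
IFIH1: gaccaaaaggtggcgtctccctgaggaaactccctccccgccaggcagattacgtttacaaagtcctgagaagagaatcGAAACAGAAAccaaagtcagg
IFI44L: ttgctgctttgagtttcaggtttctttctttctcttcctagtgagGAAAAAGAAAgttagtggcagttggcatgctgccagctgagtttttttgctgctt
RTP4: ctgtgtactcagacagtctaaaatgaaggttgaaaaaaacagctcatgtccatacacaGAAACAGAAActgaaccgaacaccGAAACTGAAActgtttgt
LGALS3BP: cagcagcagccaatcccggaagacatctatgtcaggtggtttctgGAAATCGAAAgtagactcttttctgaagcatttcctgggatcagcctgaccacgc
IFIT3: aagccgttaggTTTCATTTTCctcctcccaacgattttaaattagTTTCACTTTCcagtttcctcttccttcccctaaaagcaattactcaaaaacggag

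The arrays were of even overall brightness, with medians from 6.25 to 6.45. The B cell markers MS4A1, CD79A, CD79B, PAX5, CD22 and BLK, averaged per array, lay at 10.51 to 12.52 in the DMSO and 10xLCC groups of days 4 and 6 in all 4 lines, and the T and NK cell markers at 5.62 to 6.95. Single B cell markers were lower than that average, with CD79A and BLK lower in Pfeiffer (medians 8.39 and 7.77) than in the other lines. Single markers of other cell types were bright, DCN in Karpas422 (median 13.74), EPCAM in Pfeiffer (median 11.84) and TCF4, from the list for plasmacytoid dendritic cells, in Pfeiffer, Karpas422 and WSU-DLCL2 (medians 12.36, 11.14 and 10.49). DCN in WSU-DLCL2 (median 9.38), the T cell marker CD3G in Karpas422 (8.74) and COL1A1 in all 4 lines (8.663 to 9.115) were also above the array medians. Their part in the results was not tested. The plasmacytoid dendritic cell markers, from a cell type rich in interferon, lay at 6.85 to 7.20 in DMSO and at 6.99 to 7.39 at 10xLCC in Karpas422 at day 4. The 3′ to 5′ ratio of beta-actin, which rises with degraded RNA, was raised in Karpas422 at day 6, at 1.25 in DMSO, 2.37 at LCC and 2.25 at 10xLCC (log2 means), against −0.03 to 0.25 at days 2 and 4. Results of Karpas422 are therefore given first for day 4. In Pfeiffer, array B of the LCC day 6 group stood apart from its replicates, by 0.699 (root mean square over genes, log2). In bulk RNA, fewer cells that express a gene and less RNA of it per cell cannot be told apart.

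Before any drug, Karpas422 already held the interferon response genes at far higher levels than the other lines. In DMSO, over the 3 days together, 36 of the 38 members were higher in Karpas422 than in WSU-DLCL2 and 0 were lower (limma, adjusted p under 0.05), against 26.6% of all genes that were higher. Against SU-DHL6, 35 were higher, where 27.1% of all genes were, and 1 was lower, where 28.7% were. Against Pfeiffer, 33 were higher, where 28.0% of all genes were, and 3 were lower, where 28.5% were. The median member difference was 2.77, 2.82 and 2.50. For 31 of the 38, all 9 DMSO arrays of Karpas422 lay above all 27 DMSO arrays of the other lines, as they did for 6.22% of the genes tested. These comparisons share the Karpas422 arrays.

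MX1, a GTPase that traps viral nucleocapsids, spanned the widest range of line means among the 38 members. Its DMSO arrays ran from 13.48 to 13.77 in Karpas422 (median 13.68), from 8.39 to 9.22 in Pfeiffer (median 8.79), from 6.11 to 7.36 in SU-DHL6 (median 6.24) and from 5.92 to 6.63 in WSU-DLCL2 (median 6.17). The arrays of Karpas422 and Pfeiffer overlapped with no other line, while those of SU-DHL6 and WSU-DLCL2 overlapped with each other. Karpas422 exceeded WSU-DLCL2 by 7.47 ± 0.11 (SE), a 178-fold difference. IFI44, an interferon-induced cytoplasmic protein, ran from 10.43 to 11.53 in Karpas422 (median 11.14). It stayed between 4.22 and 5.23 in the other lines, whose ranges overlapped. The difference was 6.29 against WSU-DLCL2, 6.44 against SU-DHL6 and 6.33 against Pfeiffer.

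ISG15, the ubiquitin-like protein that is attached to other proteins, was ordered differently. Its DMSO arrays ran from 14.08 to 14.27 in Karpas422 (median 14.19), from 11.55 to 12.13 in WSU-DLCL2 (median 12.04), from 8.40 to 8.76 in Pfeiffer (median 8.55) and from 7.41 to 8.45 in SU-DHL6 (median 7.78). WSU-DLCL2 stood clear of Pfeiffer and SU-DHL6, which overlapped. CMPK2, a mitochondrial nucleotide kinase beside RSAD2, followed the same order in its upper lines, with means of 11.53 in Karpas422, 9.07 in WSU-DLCL2, 5.78 in SU-DHL6 and, lowest, 5.50 in Pfeiffer.

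Among the regulators, IRF7 had means of 11.10 in Karpas422, 8.87 in SU-DHL6, 7.67 in WSU-DLCL2 and 7.64 in Pfeiffer (SD 0.15, 0.14, 0.17 and 0.18, n = 9). The lowest Karpas422 array, 10.85, was above the highest SU-DHL6 array, 9.02, and WSU-DLCL2 and Pfeiffer did not differ beyond their spread. IRF9, a DNA-binding subunit of the complex that binds the ISRE, had means of 11.25, 8.87, 8.35 and 9.01 in the same lines.

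The exceptions were few. IFIH1, the double-stranded RNA sensor MDA5, was highest in Pfeiffer, at 9.17 to 9.87 (median 9.38), and lay at 5.49 to 6.18 in Karpas422 (median 5.73). Karpas422 was 3.71 ± 0.12 (SE) lower. IFIT5 and HERC5 were the other members lower in Karpas422 than in Pfeiffer, by 0.64 and 0.48. MX2, the nuclear relative of MX1, was lower in Karpas422 than in SU-DHL6 by 0.35, and its DMSO means were 9.84 in Karpas422, 9.78 in Pfeiffer, 10.19 in SU-DHL6 and 6.22 in WSU-DLCL2. GBP1, a guanylate-binding protein, lay at 3.79 to 4.50 on every DMSO array of the series, close to the filter.

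**Figure D1:**
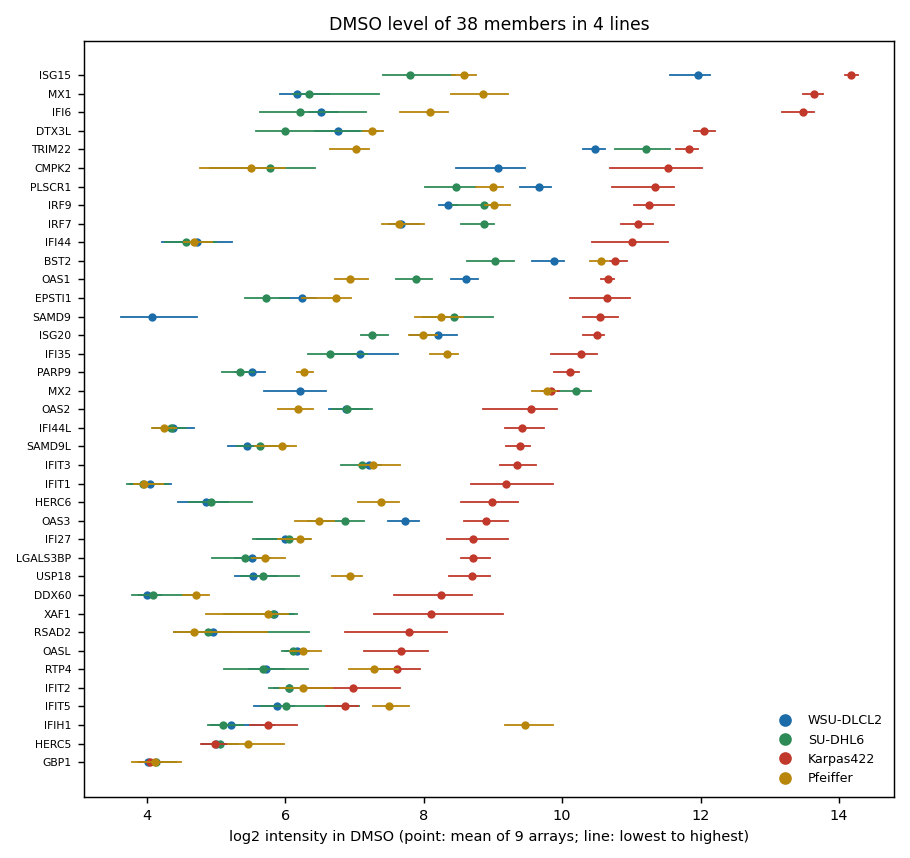
DMSO level of each of the 38 members in the 4 lines (log2 intensity, 1 row per gene; points are means of 9 arrays, lines run from the lowest to the highest array). Karpas422 has the highest mean for 33 members, Pfeiffer for 3 (IFIH1, IFIT5 and HERC5) and SU-DHL6 for 2 (MX2 and GBP1).

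Under EPZ6438, the members rose together in Karpas422. At 10xLCC, 34 of the 38 rose at day 2 (4.65% of all genes did), 37 at day 4 (10.8% of all genes) and 37 at day 6 (18.4% of all genes). No member fell at any of these days, while 15.2% of all genes fell at day 4 and 19.2% at day 6. The median member change was 1.03, 1.49 and 1.50, and the median of all genes was −0.02, −0.04 and −0.03. At day 4 all 3 treated arrays lay above all 3 DMSO arrays for 37 of the 38, against 13.3% of all genes. By then 31 members had risen at least 2-fold and 14 at least 4-fold. The share of all genes that reached these sizes was not counted.

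At the lower dose, LCC, 28 members rose at day 2 (2.27% of all genes did), 35 at day 4 (5.90%) and 35 at day 6 (11.7%), with medians of 0.64, 1.06 and 1.32. At both doses and on all 3 days 28 of the 38 rose. Of all genes at most 2.27% can have done so, the share at LCC day 2. The 10 that did not were DTX3L, EPSTI1, GBP1, HERC5, IFI6, IFIT2, ISG20, PARP9, PLSCR1 and RTP4.

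**Figure D2:**
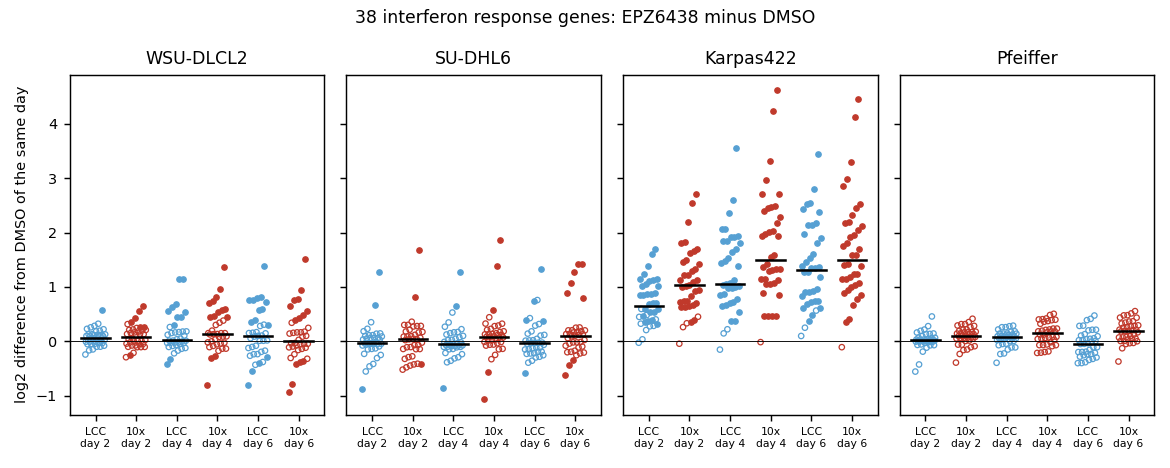
Change of each member from DMSO of the same day (log2, 1 point per gene and panel column) in the 4 lines, at LCC and 10xLCC on days 2, 4 and 6. The points of Karpas422 lie almost all above 0, with medians from 0.64 to 1.50, and those of the other lines scatter around 0.

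The genes that sense or bind RNA all rose in Karpas422: 13 of 13 at both day 4 and day 6 at 10xLCC, with medians of 1.94 and 1.41. IFIH1, low in this line without drug, had the largest change of the group. Its arrays A, B and C read 5.61, 5.73 and 6.18 in DMSO at day 4, 8.56, 8.35 and 8.40 at LCC, and 10.22, 10.00 and 9.99 at 10xLCC. The 3 groups did not overlap, and the order of the doses held on every array. The rise at 10xLCC was 4.23 ± 0.26 (SE), 18.8-fold (adjusted p = 3.2e-12). Its 3 probe sets rose by 0.71 to 4.23, so the size depends on the probe set while the call does not.

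OASL, an OAS-like protein that aids RNA sensing, read 7.98, 7.96 and 8.07 in DMSO at day 4 and 10.89, 10.90 and 10.38 at 10xLCC. All treated arrays lay above the controls, and the rise was 2.72 ± 0.17 (adjusted p = 2.2e-12). The enzymes OAS1, OAS2 and OAS3, which make the activator of RNase L, rose by 1.33, 1.55 and 1.29. The 2 probe sets of OAS3 ranged from 0.45 to 1.29 at day 4 and from 0.005 to 1.23 at day 6, with 1 called at each day. The IFIT proteins, which bind the 5′ ends of foreign RNA, rose by 1.94 (IFIT1), 2.45 (IFIT2), 2.01 (IFIT3) and 1.97 (IFIT5). The helicase DDX60 rose by 1.42, the exonuclease ISG20 by 1.58, and the antiviral factors SAMD9 and SAMD9L by 1.08 and 1.94.

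The GTPases, membrane proteins and other effectors rose for 12 of 12 members at both days, with medians of 1.35 and 1.23. IFI27, a mitochondrial and nuclear envelope protein, changed most of all members. Its arrays read 8.71, 8.44 and 9.01 in DMSO at day 4, 12.21, 12.21 and 12.41 at LCC, and 13.38, 13.28 and 13.37 at 10xLCC. Each dose formed a group of its own without overlap. The rise at 10xLCC was 4.62 ± 0.26, 24.6-fold (adjusted p = 3.4e-13).

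RSAD2 (viperin), which makes a chain-terminating nucleotide, read 8.34, 8.01 and 8.33 in DMSO at day 4, 10.60, 10.60 and 10.57 at LCC, and 11.69, 11.67 and 11.27 at 10xLCC. No group overlapped with another, and the rise at 10xLCC was 3.32 ± 0.13, 9.96-fold (adjusted p = 3.0e-16). RTP4, a receptor chaperone that also restrains viruses, went from 7.53, 7.62 and 7.85 to 10.56, 10.19 and 9.72, a rise of 2.49 ± 0.19. LGALS3BP, a secreted glycoprotein, went from 8.96, 8.65 and 8.88 to 11.17, 11.29 and 11.46, a rise of 2.47 ± 0.11. Both sets of treated arrays lay clear of their controls.

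MX2 and MX1, direct neighbours on chromosome 21, differed in size. MX2 read 9.95, 9.90 and 9.95 in DMSO at day 4 and 12.35, 12.44 and 12.21 at 10xLCC, a rise of 2.40. MX1 read 13.73, 13.68 and 13.65 in DMSO and 14.13, 14.20 and 14.11 at 10xLCC, a rise of 0.46. Both sets of treated arrays were above their controls. MX1 was already near the top of the scale, whose highest value on any array was 14.96, and the part of that ceiling in the smaller change was not tested. BST2 (tetherin), which holds budding virions at the cell surface, rose by 1.14, CMPK2 by 1.34, the scramblase PLSCR1 by 1.36, TRIM22 by 1.06, IFI6 by 0.89 and GBP1 by 0.46. The 4 probe sets of GBP1 ranged from −0.28 to 0.83, so its change is uncertain.

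Of the ISG15 system, 3 of 4 members rose at both days. USP18, the protease that removes ISG15 and dampens the receptor, read 8.37, 8.38 and 8.53 in DMSO at day 6 and 10.32, 10.35 and 10.46 at 10xLCC. Treated and control arrays did not overlap, and the rise was 1.95 ± 0.10, 3.87-fold (adjusted p = 1.5e-14). ISG15 read 14.19, 14.25 and 14.27 and then 14.55, 14.60 and 14.62, a rise of 0.35 ± 0.07 (adjusted p = 9.8e-05) near the top of the scale. HERC6, a ligase of the same family as HERC5, rose by 2.28 at day 4, but its 2 probe sets ranged from 0.22 to 2.28. HERC5, the main ligase that attaches ISG15, read 4.96, 5.19 and 4.95 in DMSO at day 4 and 4.78, 4.83 and 5.44 at 10xLCC, with overlap, and was not called (difference −0.01, adjusted p = 0.97).

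The transcription factors and cofactors rose for 4 of 4 members, with medians of 0.95 and 1.12. IRF7, the factor that amplifies interferon output, read 11.30, 11.32 and 11.19 in DMSO at day 6 and 12.72, 13.02 and 12.81 at 10xLCC. IRF9 read 11.62, 11.59 and 11.48 and then 12.87, 12.81 and 12.71. For both genes every treated array was above every control, and the rises were 1.58 ± 0.12 (adjusted p = 1.6e-11) and 1.23 ± 0.09 (adjusted p = 7.0e-12). PARP9 and DTX3L, which act as a pair, rose by 0.85 and 0.47 at day 4. A further probe set of PARP9 read 0.04 at day 4 and −0.07 at day 6, where the one used read 0.85 and 1.01.

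The remaining induced genes rose for 5 of 5 members. IFI44L, the neighbour of IFI44, read 9.18, 9.61 and 9.35 in DMSO at day 4 and 12.33, 11.85 and 12.09 at 10xLCC, a rise of 2.71 ± 0.12 (adjusted p = 8.1e-15). XAF1, an antagonist of the apoptosis inhibitor XIAP, went from 7.37, 7.52 and 8.24 to 10.74, 10.85 and 10.44, a rise of 2.96 ± 0.18 (adjusted p = 2.7e-12). Neither overlapped with its controls. IFI35, IFI44 and EPSTI1 rose by 2.03, 1.14 and 1.32. RSAD2 and XAF1, among the largest rises, were also among the members without ISRE letters in the promoter window.

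**Figure D3:**
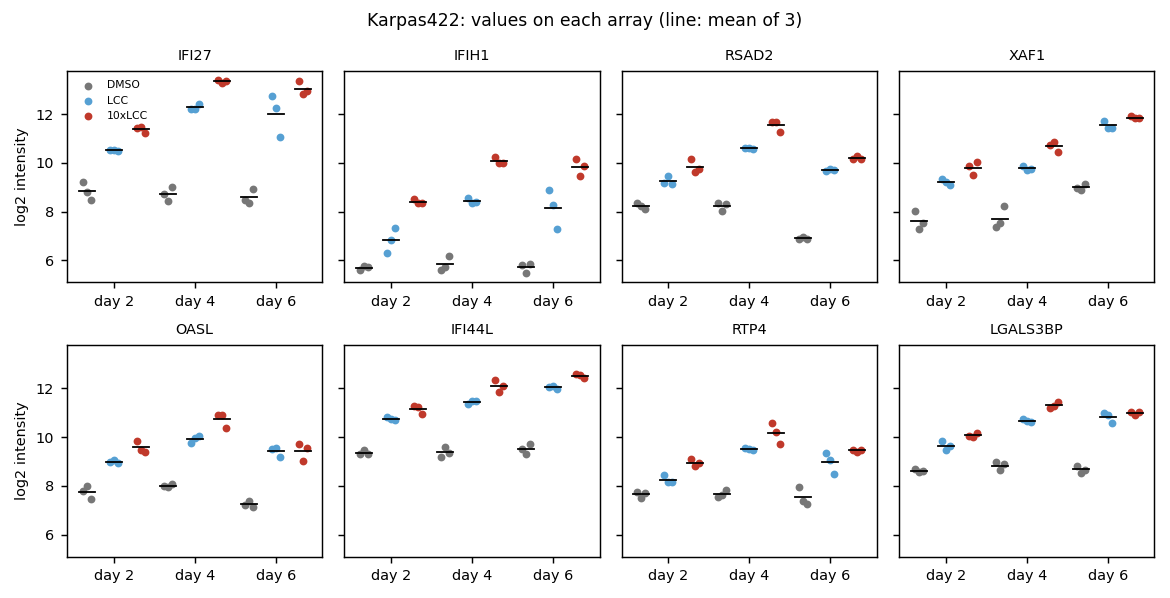
Level on each Karpas422 array (log2 intensity) of the 8 members with the largest rise at day 4, by day and dose (points are arrays A, B and C, short lines are group means). At day 4 the 10xLCC arrays of each gene lie above its DMSO arrays, as for IFI27 at 13.28 to 13.38 against 8.44 to 9.01.

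The response depended on dose and time. At 10xLCC the members stood above LCC by a median of 0.43 at day 4, where 20 of 38 were called higher (3.55% of all genes) and all 38 differences were above 0. At day 6 the median was 0.29 and 11 were called higher (9.57% of all genes). IFIH1 had the largest step, 1.64 at day 4 and 1.68 at day 6. IFI27 differed by 1.07 and 1.02, and OASL by 0.80 and 0.01.

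The LCC arrays of day 6 spread widely. IFIH1 read 8.89, 8.29 and 7.28 and IFI27 read 12.76, 12.23 and 11.07 on arrays A, B and C, whose 3′ to 5′ ratios of beta-actin were 1.12, 2.43 and 3.56. Array C was the lowest for both genes and had the highest ratio. With that ratio as a covariate, 16 rather than 11 members were called higher at 10xLCC than at LCC (12.0% of all genes), and with centring on bright genes 17 were (11.9%).

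Between day 2 and day 6 the 10xLCC effect grew for 19 members and shrank for 0, where it grew for 9.68% of all genes, with a median of 0.55. For all 38 the effect was larger at day 4 than at day 2, a direction counted without a test. Between day 4 and day 6 the effect differed for 2 members, against 8.68% of all genes. That of IRF7 grew by 0.53 and that of IFIT2 dropped by 1.30. IFIT2 read 10.09, 9.84 and 9.34 at 10xLCC at day 4 and 7.56, 7.73 and 7.41 at day 6, against 7.66, 6.78 and 7.48 and then 6.31, 6.63 and 6.32 in DMSO, so its level was lower at day 6 in both groups.

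The DMSO cultures moved too. From day 2 to day 6, 3 members rose in DMSO (15.1% of all genes did), XAF1 by 1.38, IRF9 by 0.44 and IFIT3 by 0.31, and 12 fell (16.3% of all genes did). RSAD2 fell by 1.32, from a mean of 8.23 to 6.90, and CMPK2 fell by 1.20, from 11.99 to 10.79. At 10xLCC, RSAD2 read 10.14, 10.29 and 10.15 at day 6, below its day 4 arrays, although its difference from DMSO was 3.29. The raised beta-actin ratio of day 6 moved with these DMSO changes, and its part in them was not tested.

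With the beta-actin ratio as a covariate, 37 members rose at day 4 and 36 at day 6 at 10xLCC, with a day 6 median of 1.84. The share of all genes that rose with this covariate is not given here. The members not called at day 6 were then HERC5 and DTX3L (0.28, adjusted p = 0.061). With each array centred on bright genes, 37 members rose at each day, 33.5% of all genes rose and 12.5% fell at day 6, and the median of all genes moved to 0.20. Across the 9 Karpas422 group means, each member's correlation with the mean of the others ran from −0.28 (HERC5) to 0.995 (HERC6), with a median of 0.954. This is a description over 9 groups that share the same arrays and has no test.

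**Figure D4:**
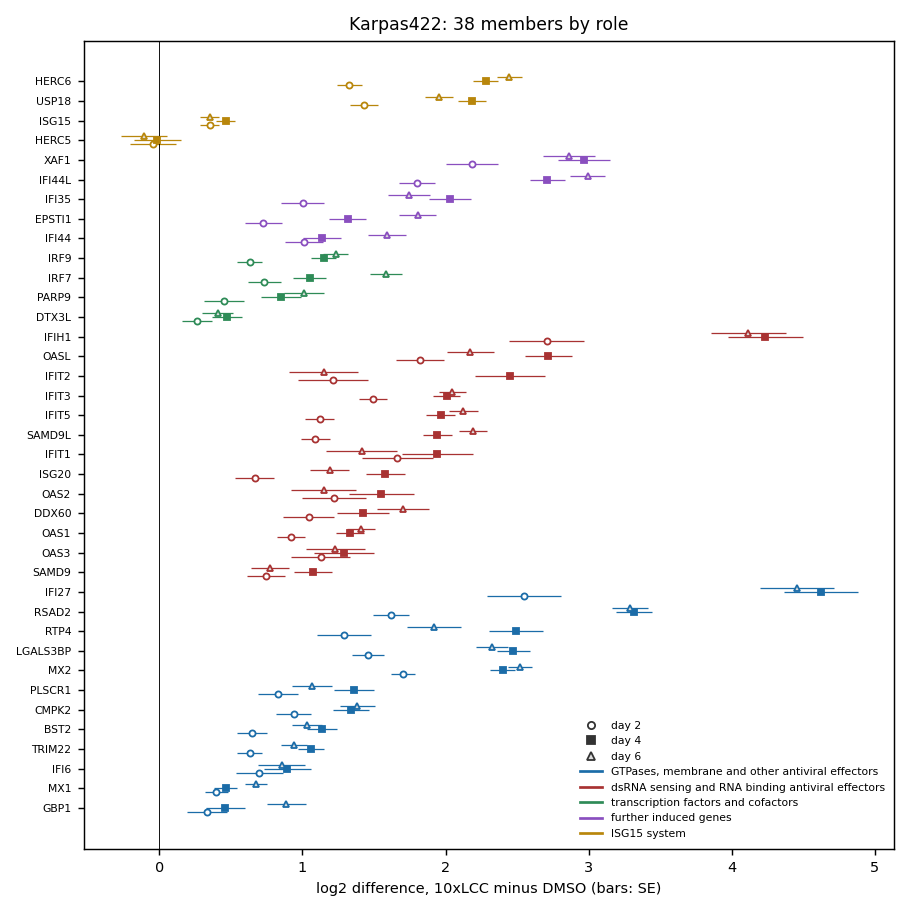
Difference of 10xLCC from DMSO in Karpas422 for each of the 38 members (log2, points at days 2, 4 and 6, bars are SE, colours are roles). IFI27 and IFIH1 exceed 4 at days 4 and 6, and HERC5 stays at −0.11 to −0.01.

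The effect of 10xLCC was compared between lines in 1 model over all arrays. Karpas422 exceeded the mean of the other lines for 31 members at day 4 (5.91% of all genes) and for 35 at day 6 (11.7%), with medians of 1.70 and 1.53. At day 6 it exceeded WSU-DLCL2 for 35 (11.3% of all genes), SU-DHL6 for 30 (12.5%) and Pfeiffer for 33 (11.9%). DTX3L was the 1 member with a lower effect than in SU-DHL6, by 0.87, where 13.9% of all genes were lower. These differences share the Karpas422 arrays. The members not called against the mean of the others at day 6 were DTX3L, HERC5 and MX1.

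IFI27 and IFIH1 differed most, by 4.56 and 4.14 at day 4 and by 4.53 and 4.29 at day 6 (SE 0.21 and 0.25). The next were XAF1, with 2.83 and 3.04, and RSAD2, with 2.81 and 2.49. OASL differed by 2.71 and 2.13, IFI44L by 2.45 and 3.04, RTP4 by 2.34 and 1.72 and LGALS3BP by 2.20 and 1.98.

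In WSU-DLCL2 the members split. At 10xLCC, 11 rose and 3 fell at day 4, where 18.9% of all genes rose and 14.7% fell. At day 6, 9 rose and 5 fell, where 17.0% rose and 19.2% fell, and the median member change was −0.00. At LCC and day 6, 11 rose and 4 fell, where 16.6% rose and 11.2% fell. The members' shares were of the same order as those of all genes, so the counts are not a result about the members as a group. With centring on bright genes the day 6 counts were 12 and 2, beside 28.8% and 13.9% of all genes.

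The 9 members that rose at both days were BST2, CMPK2, HERC6, IFI35, IRF7, IRF9, LGALS3BP, MX1 and RSAD2. The 2 probe sets of HERC6 differed in direction, from −0.06 to 0.46 at day 4 and from −0.09 to 0.76 at day 6. RSAD2 read 4.94, 5.12 and 4.99 in DMSO at day 6 and 6.63, 6.44 and 6.49 at 10xLCC. The groups were apart, and the rise was 1.51 ± 0.12, 2.84-fold (adjusted p = 1.4e-10). IFI35 went from 7.16, 7.10 and 7.16 to 8.20, 7.95 and 8.09 (0.94 ± 0.12, adjusted p = 2.9e-07). IRF7 went from 7.54, 7.60 and 7.57 to 8.43, 8.23 and 8.36 (0.77 ± 0.10, adjusted p = 1.5e-06), and IRF9 from 8.42, 8.32 and 8.23 to 8.81, 8.59 and 8.73 (0.39). In all 4 the treated arrays lay above the controls.

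OAS3 and ISG15 went the other way in WSU-DLCL2. OAS3 read 7.48, 7.59 and 7.64 in DMSO at day 6 and 6.61, 6.82 and 6.49 at 10xLCC, a change of −0.93 ± 0.10 (adjusted p = 3.4e-08). ISG15 read 12.13, 12.13 and 12.05 and then 11.38, 11.29 and 11.30, a change of −0.78 ± 0.08 (adjusted p = 3.1e-08). Both sets of treated arrays were below all controls. IFIT1, close to the filter, went from 4.36, 4.10 and 4.25 to 3.72, 3.84 and 3.91 (−0.41 ± 0.12, adjusted p = 8.7e-03). The call of IFIT1 was lost with centring (−0.26), with all arrays in 1 model (−0.41) and without array A of DMSO day 6 (−0.35). IFI44 and IFI27 fell by 0.38 and 0.36. The 2 probe sets of IFI44 ranged from −0.38 to 0.06, and its DMSO arrays in this line lay low, at 4.22 to 5.23, so its fall is uncertain. IFIH1 and USP18 were not called, at −0.31 and 0.34. Of the 13 genes that sense or bind RNA, 0 rose and 2 fell in this line at day 6. Of all genes 17.0% rose and 19.2% fell, so these small counts are not a result about that group.

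In SU-DHL6 few members were called at day 4 or day 6, and IRF7 and IRF9 were among those that rose at day 6. At 10xLCC and day 4, 3 rose and 2 fell, where 10.3% of all genes rose and 9.64% fell. CMPK2 rose by 1.87, DTX3L by 1.39 and PLSCR1 by 0.58, and OAS1 fell by 1.06 and ISG20 by 0.56. The 2 probe sets of ISG20 ranged from −0.56 to −0.10 with 1 called, so the size of its fall is uncertain. At day 6, 6 rose and 3 fell, where 19.8% of all genes rose and 26.7% fell. At LCC and day 6, 4 rose (CMPK2, PLSCR1, IRF7 and TRIM22), where 10.2% of all genes did, and 1 fell (OAS1), where 7.69% did. The members' shares were near or below those of all genes, so these counts are not a result about the members as a group.

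IRF7 read 8.79, 8.93 and 9.02 in DMSO at day 4 and 8.93, 9.07 and 9.25 at 10xLCC, with overlap. At day 6 it read 8.94, 8.84 and 8.86 in DMSO and 10.43, 10.18 and 10.28 at 10xLCC, without overlap, a rise of 1.42 ± 0.11 (adjusted p = 6.3e-11). IRF9 went from 8.984, 8.895 and 9.002 to 10.14, 9.91 and 10.05 at day 6 (1.07 ± 0.12, adjusted p = 2.5e-08). The 10xLCC effect was higher at day 6 than at day 4 for 6 members (10.8% of all genes), IRF7, OAS1, IRF9, ISG20, TRIM22 and OAS2, by 0.45 to 1.25. It was lower for 1 (13.2% of all genes), USP18, where it fell by 0.73 on the log2 scale. The 2 probe sets of OAS1 ranged from −1.30 to −1.06 at day 4 and from −1.21 to −0.26 at day 6. Its difference between the days thus depends on the probe set.

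CMPK2 read 5.53, 5.30 and 5.88 in DMSO at day 6 and 6.74, 7.26 and 6.99 at 10xLCC, a rise of 1.42 ± 0.21 (adjusted p = 2.6e-06). DTX3L went from 5.58, 5.78 and 5.66 to 6.92, 6.77 and 7.17, a rise of 1.28 ± 0.28 (adjusted p = 4.2e-04). Treated and control arrays were apart for both. RSAD2 and TRIM22 also rose, by 0.89 and 0.79. IFIH1 and ISG15 were not called, at 0.16 and 0.12.

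The members that fell in SU-DHL6 at day 6 had small changes on the probe sets used. OAS1 and SAMD9 were not called there, but their probe sets differed in size. The 2 of OAS1 ranged from −1.21 to −0.26 and the 2 of SAMD9 from −0.62 to −0.19, with 1 of each called lower. USP18 went from 5.69, 5.80 and 5.81 to 5.35, 4.94 and 5.15 (−0.62 ± 0.17, adjusted p = 4.0e-03), HERC5 from 5.18, 5.05 and 5.03 to 4.40, 4.72 and 4.84 (−0.43 ± 0.15, adjusted p = 0.022), and OAS3 from 6.89, 6.90 and 6.68 to 6.31, 6.70 and 6.41 (−0.35 ± 0.14, adjusted p = 0.047), whose arrays overlapped. With centring on bright genes, or with the beta-actin ratio as a covariate, 0 members fell. That ratio was 0.34 at 10xLCC and −0.18 in DMSO at day 6, and with it OAS3 had the opposite sign, at 0.40, and DTX3L, at 0.26, was not called. Centring gave 11 risen members, beside 28.1% of all genes that rose and 15.6% that fell.

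WSU-DLCL2 and SU-DHL6 were compared directly at day 6. The 10xLCC effect was higher in WSU-DLCL2 for 3 members, USP18, IFI35 and LGALS3BP, by 0.96, 0.69 and 0.51. It was lower for 6, DTX3L, CMPK2, ISG15, TRIM22, IRF9 and IRF7, by values from 0.65 to 1.19. Of all genes 28.3% differed in either direction. CMPK2, IRF7, IRF9 and RSAD2 were the 4 members that rose at day 6 in all 3 Y641 lines, as 6.44% of all genes did. At day 4 CMPK2 was the 1 member to do so (3.12% of all genes), and at day 2 there were 0 (1.52%). These counts are near the shares of all genes and say nothing particular of the members.

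In Pfeiffer no member was called in 10xLCC against DMSO. At day 2 limma called 0 of 38 (0.00528% of all genes in either direction) and 1 had an unadjusted p under 0.05, as did 3.74% of all genes. At day 4 it called 0 (0.0687% of all genes) and 9 had an unadjusted p under 0.05 (7.83% of all genes). At day 6 it called 0 (0.222% of all genes) and 8 had one (4.87%). At day 6, 33 of 38 differences were above 0, with a median of 0.19 beside 0.02 for all genes, and for 16 members all 3 treated arrays lay above the controls, as for 12.1% of all genes. These values are small but lean to one side. IFIH1 was the 1 member whose treated arrays, 9.25, 9.19 and 9.07, all lay below the controls, 9.47, 9.35 and 9.80 (−0.37, adjusted p = 1.0).

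ISG20 came closest to the threshold, from 7.84, 7.79 and 7.97 to 8.39, 8.42 and 8.45 (0.56, adjusted p = 0.054). ISG15 went from 8.60, 8.40 and 8.53 to 8.91, 8.88 and 8.83 (0.36 ± 0.11, adjusted p = 0.31), and IRF7 from 7.78, 7.50 and 7.59 to 7.94, 8.23 and 8.02 (0.44 ± 0.13, adjusted p = 0.27). In these 3 genes the treated arrays lay above the controls. IRF9 and USP18 differed by 0.21 and 0.20 and were not called.

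The calls in Pfeiffer changed when 1 array was left out. Without array B of LCC day 6, 4 members rose at day 4 (2.08% of all genes) and 6 at day 6 (1.80%). The latter were DTX3L, EPSTI1, IFI35, IRF7, ISG15 and ISG20, by 0.36 to 0.56. Against LCC at day 6, 5 members were higher at 10xLCC (1.34% of all genes), DTX3L, EPSTI1, IFI35, ISG20 and LGALS3BP, by 0.49 to 0.69. Without that array, an alternative added after seeing the data, 3 of these were called (0.508% of all genes). With the beta-actin ratio as a covariate 0 members were called (0.0845% of all genes). With it 13 had an unadjusted p under 0.05, and the share of all genes that did is not given here. In the main fit of 10xLCC against LCC at day 6, 14 members and 4371 of 18935 genes had one. The replicate block or centring left 3, and quantile normalization or a pseudocount of 16 gave 8.

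**Figure D5:**
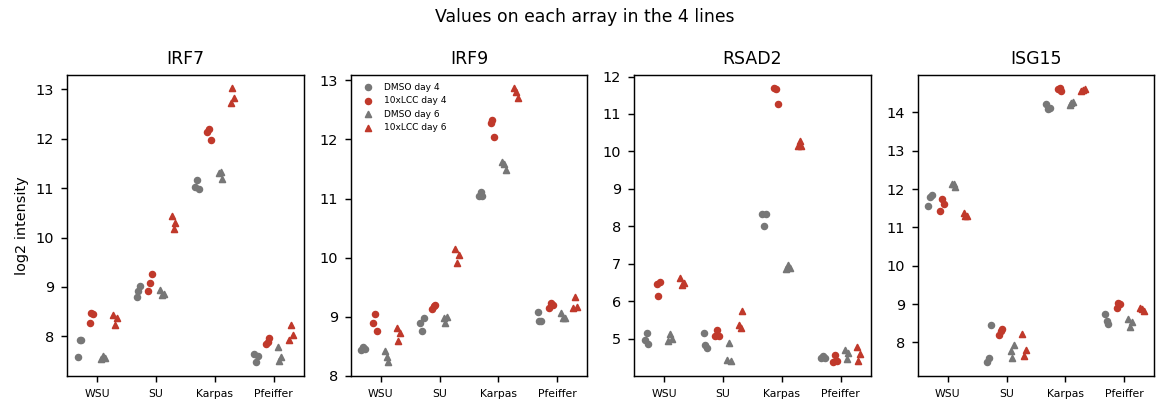
Level on each array (log2 intensity) of IRF7, IRF9, RSAD2 and ISG15, 1 panel per gene, in DMSO and at 10xLCC on days 4 and 6 in the 4 lines. IRF7 at day 6 rises in Karpas422, WSU-DLCL2 and SU-DHL6, and in Pfeiffer runs from 7.50 to 7.78 in DMSO and from 7.94 to 8.23 at 10xLCC without being called.

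The rest of the pathway was read from lists of genes that are no members, at 10xLCC in Karpas422, where 10.8% of all genes rose and 15.2% fell at day 4, and 18.4% rose and 19.2% fell at day 6. Of 13 interferon ligands tested, 1 rose and 0 fell at day 4, and 0 rose and 1 fell at day 6. IFNB1, interferon beta, read 5.20, 5.30 and 5.03 in DMSO at day 4, 5.88, 6.04 and 5.66 at LCC, and 6.75, 6.16 and 5.76 at 10xLCC. The treated arrays lay above the controls at both doses, and the rise at 10xLCC was 1.05 ± 0.18 (adjusted p = 4.6e-05). Array C at 10xLCC, 5.76, lay within the range of the LCC arrays. The DMSO levels of IFNB1 lay below the lowest array median, 6.25, so signal over background may limit these values. At day 6 it read 5.11, 5.15 and 5.26 in DMSO and 5.66, 5.40 and 5.20 at 10xLCC, with overlap (0.25, adjusted p = 0.30). IFNL1, a type III interferon, fell by 0.33 at day 6, and that call was lost under several alternatives, among them leaving out single arrays. IFNB1 was not called in the other lines, at day 6, with 0.24 in Pfeiffer, −0.27 in SU-DHL6 and −0.02 in WSU-DLCL2. At day 4 its means in DMSO and at 10xLCC were 4.82 and 4.86 in Pfeiffer, 4.92 and 4.94 in SU-DHL6, and 4.916 and 4.695 in WSU-DLCL2.

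Of the 9 receptor and kinase genes, 5 rose and 0 fell at day 6 in Karpas422. JAK1, the kinase shared by the interferon receptors, read 8.87, 8.71 and 8.62 in DMSO and 10.47, 10.40 and 10.40 at 10xLCC, without overlap, a rise of 1.69 ± 0.11 (adjusted p = 1.7e-12). JAK1 also rose by 1.18 in WSU-DLCL2 and by 1.36 in SU-DHL6, and differed by 0.21 in Pfeiffer, where it was not called. IFNLR1 and IL10RB, the chains of the interferon lambda receptor, rose by 1.20 and 0.56 in Karpas422.

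Of 7 STAT and IRF genes outside the member list, 3 rose, IRF1 by 1.01, STAT3 by 0.73 and IRF8 by 0.60. IRF1, an early interferon target and activator, read 7.34, 7.21 and 7.18 in DMSO at day 6 and 8.49, 7.91 and 8.36 at 10xLCC. It fell by 0.51 in WSU-DLCL2 and rose by 0.46 in SU-DHL6. From DMSO to 10xLCC at day 6, STAT3 means went from 9.47 to 10.82 in WSU-DLCL2 and from 9.54 to 11.06 in SU-DHL6. Those of IRF8 went from 11.73 to 12.26 in WSU-DLCL2 and from 12.199 to 12.365 in SU-DHL6.

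Of 20 sensors and adaptors, 11 rose and 3 fell at day 6, where 18.4% of all genes rose and 19.2% fell, so the fallen count is near that of all genes. AIM2, a sensor of DNA in the cytosol, read 5.90, 5.58 and 5.78 in DMSO at day 6 and 9.43, 9.21 and 9.27 at 10xLCC, a rise of 3.55 ± 0.18 (adjusted p = 1.7e-14) without overlap. AIM2 means at day 6 also went from 9.75 to 11.57 in WSU-DLCL2 and from 10.91 to 11.15 in SU-DHL6. In Karpas422 IFI16, a further DNA sensor, rose by 1.57, the adaptor MYD88 by 1.06 and the RNA sensor RIGI, the relative of IFIH1, by 0.93. CGAS, the enzyme that makes cGAMP on DNA, fell by 1.50.

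Of 9 negative regulators, 3 rose and 2 fell. SOCS1, the inhibitor of JAK kinases, read 7.41, 7.58 and 7.79 in DMSO at day 6 and 9.75, 9.86 and 9.84 at 10xLCC, a rise of 2.22 ± 0.09 (adjusted p = 3.5e-16). It also rose by 1.35 in WSU-DLCL2 and by 2.32 in SU-DHL6, and in Pfeiffer its 0.14 was not called. NLRC5, an activator of MHC class I genes, rose by 1.60 in Karpas422 and the phosphatase PTPN6 changed by −0.98. From DMSO to 10xLCC at day 6, NLRC5 means went from 5.95 to 7.43 in WSU-DLCL2 and from 6.01 to 5.90 in SU-DHL6. PTPN6 means were higher at 10xLCC in both lines, from 10.393 to 11.135 in WSU-DLCL2 and from 9.02 to 10.23 in SU-DHL6.

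Of 27 other interferon-induced genes, 23 rose and 0 fell in Karpas422 at day 6, with a median of 1.06. APOBEC3G, a cytidine deaminase that acts on viral DNA, rose by 2.19, LGALS9 by 1.80 and SHFL by 1.51. The same list had 16 risen and 1 fallen in WSU-DLCL2 (17.0% and 19.2% of all genes), and 12 and 4 in SU-DHL6 (19.8% and 26.7%). APOBEC3G means went from 7.18 in DMSO to 9.10 at 10xLCC in WSU-DLCL2 at day 6, and from 11.505 to 11.886 in SU-DHL6. Of 14 genes typical of interferon gamma, 2 rose at day 4 in Karpas422 and 1 at day 6. TAP1, the peptide transporter, rose by 1.01 at day 4 and by 0.90 at day 6. PSMB9, a subunit of the immunoproteasome, read 12.85, 12.65 and 12.76 in DMSO at day 4 and 13.36, 13.29 and 13.09 at 10xLCC, without overlap, a rise of 0.49 ± 0.14 (adjusted p = 0.0088). At day 6 PSMB9 was not called (0.20), but it was with centring (0.42), quantile normalization (0.39) and the beta-actin covariate (0.56). GBP5 was not called at day 6 (0.17) and was with centring (0.40). In Pfeiffer limma called 0 genes of any of these lists at day 6. There an unadjusted p under 0.05 was found for 5 of the 27 interferon-induced genes, 2 of the genes typical of interferon gamma, 1 negative regulator and 0 of the genes in the other lists. Of all genes 4.87% had one. In lists this short, counts of 1 or 2 are not a result about the list.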

How the data were processed

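RNA of 4 lymphoma lines was hybridised to single-colour arrays of 54675 probe sets, 3 per group of line, dose and day. Per the submitters' processing notes the authors used GCRMA, of unstated version. What they deposited was 1 intensity per probe set and array, unlogged, from 5.79 to 31846. Quantile normalization of this kind removes shifts of the whole transcriptome, and the number of arrays limits the precision.

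The log2 of each intensity was taken, with a pseudocount of 0. Probe sets annotated to 1 gene (41097) were used, and 19 of the 38 members had several. For each line 1 limma model (lmFit and eBayes, version 3.58.1, R 4.3.3) was fitted over 9 groups and 27 arrays, to genes that reached log2 4 on at least 3 arrays (18842 in WSU-DLCL2, 18895 in SU-DHL6, 18873 in Karpas422 and 18935 in Pfeiffer). Effects and DMSO levels were compared between lines in 1 model over all arrays and 19224 genes. P-values are two-sided, adjusted by Benjamini-Hochberg over all genes tested, and called below 0.05. The code was tested on simulated data.

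Values per array are given for the 8 members with the largest called rise in Karpas422 at 10xLCC day 4, for up to 3 called rises and falls per line at day 6, and for IRF7, IRF9, ISG15, USP18 and IFIH1. Further members shown by array (MX1, MX2, HERC5, IFIT2, ISG20 and, outside the list, JAK1, AIM2, SOCS1 and IRF1) were chosen after their values were seen. Up to 3 genes of each pathway list with the smallest p were named, and IRF1, RIGI and IFNB1; CGAS was named after its value was seen. The members, lists and tests were chosen with earlier results of these data known. Alternatives were no filter, a stricter filter (log2 6), averaging of probe sets, centring on bright genes, quantile normalization, a pseudocount of 16, trend and robust variances, the replicate block, the beta-actin 3′ to 5′ ratio as a covariate, 2 groups only, 1 model over all arrays and leaving out each array. Promoters were those of RefSeq on GRCh38.p14.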

Additional observations from a re-analysis of the deposited data

Results flagged for a closer look

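The effect of 10xLCC differed between lines, by the interaction terms of limma, for most members. Karpas422 exceeded the mean of the other lines for 31 members at day 4 (5.91% of all genes) and 35 at day 6 (11.7%). At day 6 it exceeded WSU-DLCL2 for 35 (11.3%), SU-DHL6 for 30 (12.5%) and Pfeiffer for 33 (11.9%). It was below SU-DHL6 for 1 (13.9%). WSU-DLCL2 exceeded SU-DHL6 for 3 members and was below it for 6, where 28.3% of all genes differed in either direction. These last counts are near the share of all genes and say nothing particular of the members.

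For single members the difference between Karpas422 and the mean of the other lines was 4.56 at day 4 and 4.53 at day 6 for IFI27, and 4.14 and 4.29 for IFIH1. It was 2.81 and 2.49 for RSAD2, 2.83 and 3.04 for XAF1, 2.71 and 2.13 for OASL, 2.45 and 3.04 for IFI44L, 2.34 and 1.72 for RTP4, and 2.20 and 1.98 for LGALS3BP.

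The effect also differed between days within a line. In Karpas422 it was higher at day 6 than at day 2 for 19 members (9.68% of all genes). Between day 4 and day 6 it was higher for 1 (IRF7) and lower for 1 (IFIT2), where 8.68% of all genes differed in either direction. In SU-DHL6 it was higher at day 6 than at day 4 for 6 (10.8% of all genes) and lower for 1 (USP18, 13.2%). The counts between day 4 and day 6 are near or below the shares of all genes and say nothing particular of the members.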

How the results depend on the processing

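In Karpas422 the count of risen members at 10xLCC was 33 to 36 at day 2, 36 to 37 at day 4 and 36 to 37 at day 6 over all alternatives run. Of the member counts, 532 alternatives kept their side within 1.5 times, 31 were higher and 34 lower, and of the named genes' values 1200 kept direction and call, 15 gained a call, 26 lost one and 1 reversed. In WSU-DLCL2 at day 6 the 5 fallen members became 3 with a filter at log2 6, 2 with centring, 2 with all arrays in 1 model, and 2 to 7 without single arrays. In SU-DHL6 at day 4 the 3 risen members became 6 with centring and 5 with quantile normalization, 2 groups only or all arrays. At day 6 the 6 risen became 11 with centring, and the 3 fallen became 6 with the mean of probe sets or quantile normalization, 0 with centring or the beta-actin covariate, and 1 to 3 without single arrays. OAS3 there had 0.400 with the covariate. In Pfeiffer the 0 risen at day 4 became 2 with centring, 3 with quantile normalization, 1 with 2 groups only and 4 without LCC array B of day 6. At day 6 the 0 risen became 2 with a filter at log2 6, 1 with the mean of probe sets, 3 with centring, 6 with quantile normalization, 2 with a pseudocount of 16, 1 with 2 groups only, 6 without array B, 2 with all arrays and 0 to 1 without single arrays. The 5 members above LCC became 0 with the beta-actin covariate, 3 with centring, the replicate block or without array B, and 8 with quantile normalization or a pseudocount of 16. In Karpas422 the 11 above LCC at day 6 became 17 with centring. Most of these counts stand here without the share of all genes called under the same alternative. They describe how stable the counts are and are not results about the members. The cause of these changes was not tested. Members near the filter, such as GBP1, HERC5 and IFIT1, are limited by signal over background.

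Same-lettered arrays did not deviate together (mean correlation 0.0199 in Karpas422, −0.0176 in Pfeiffer, −0.0149 in WSU-DLCL2 and −0.00559 in SU-DHL6). With the letter as a replicate block, 37 members rose at days 4 and 6 in Karpas422, 0 in Pfeiffer, 4 and 6 in SU-DHL6 and 11 and 9 in WSU-DLCL2. The 5 members above LCC at day 6 in Pfeiffer became 3 with the block. The shares of all genes with the block are not given here, so these counts describe stability only.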
